A study of Mus musculus with 16 samples.

Results

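The neural crest and pharyngeal arch genes described here are 32 genes chosen by name for their roles in crest and arch development. Earlier results of these data were known at that choice, so member counts set against all genes do not test the list. It holds 10 crest specifiers, 12 genes of the arch mesenchyme, 3 genes of endothelin signalling, 5 Six-family and Eya genes and 2 genes of the glial and pigment lineages. All 32 were found among the 26411 genes counted, and all 32 were among the 15679 genes that passed the filter on low counts. Their RNA was measured in 16 whole mouse embryos at embryonic day (E) 9.5 on a mixed FVB and BALB/c background, 4 for each of 4 genotypes. The wild-type embryos had intact Kat6a and no transgene. The Kat6a-/- embryos were homozygous for a null allele that lacks several exons. The Tg(Kat6b) embryos had intact Kat6a and carried a bacterial artificial chromosome with the whole Kat6b gene and its flanking sequence, inserted in several copies from 1 founder. The Kat6a-/- Tg(Kat6b) embryos carried both alleles. KAT6A and KAT6B are related histone lysine acetyltransferases that serve as alternative catalytic subunits of one complex, and the design asks which RNA levels change without KAT6A and whether additional KAT6B alters those levels.

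The neural crest forms at the border of the neural plate, leaves the dorsal neural tube as migratory cells and gives rise to facial skeleton, peripheral neurons and glia, and pigment cells. Cranial crest cells that enter the pharyngeal arches form a mesenchyme in which homeobox genes such as Barx1, Msx1, Msx2, Lhx6 and Lhx8 divide the tissue into tooth, jaw and palate territories. Endothelin 1 from the arch epithelium acts on its receptor Ednra on crest cells and is known for setting lower jaw identity. The SIX-type homeodomain proteins bind DNA and EYA proteins act as their coactivators. In whole embryos, fewer cells of a type and less RNA per cell cannot be told apart.

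Each library held 14407277 to 45665680 counts. Kat6b was at 42.6 to 48.2 CPM (counts scaled to a common library size) in wild-type embryos, 46.5 to 51.0 in Kat6a-/- embryos, 155 to 227 in Tg(Kat6b) embryos and 192 to 203 in Kat6a-/- Tg(Kat6b) embryos. Kat6a was at 176 to 211 CPM in wild-type and 189 to 218 CPM in Kat6a-/- embryos, and since counts over the whole gene include the exons the null allele keeps, they do not check the deletion. Each genotype had 2 male and 2 female embryos. The Kat6a-/- embryos came from litters 801 and 803, each of which also held 1 wild-type embryo. The Tg(Kat6b) embryos came from litters 2597 and 2598, each of which held 1 wild-type embryo. The Kat6a-/- Tg(Kat6b) embryos came from litters 483 and 498, which held no other genotype among these embryos, so for them genotype and litter cannot be told apart. The litter-mates of the Kat6a-/- embryos were the 2 male wild-type embryos, and the other wild-type embryos were female. Both Kat6a-/- embryos of litter 801 were female and both of litter 803 were male, so sex and litter coincide among them, and a comparison within litter 801 is also one between sexes. The summed level of 6 arch mesenchyme markers was 386 to 448 CPM in wild-type embryos, and that of 6 markers of migrating crest was 164 to 173 CPM, so RNA of these markers was present. Both lists share genes with the members, which are named with the other markers below. Markers of maternal decidua and trophoblast summed to at most 0.0686 CPM in any embryo.

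The promoters of the 4 members that were lower in Kat6a-/- embryos are shown first, together with that of Msx2 for contrast. Msx2 was not among the 4, and it was higher in Kat6a-/- Tg(Kat6b) than in Kat6a-/- embryos, as were Six2 and Barx1. Each sequence is the 250 bases before the annotated start of the gene's canonical transcript, read 5′ to 3′ on the gene's strand from the GRCm39 genome with GENCODE vM39 starts, and capitals mark every CG dinucleotide. They lie at chr17:85995704-85995953, minus strand (Six2), chr13:48816134-48816383, plus strand (Barx1), chr14:122711577-122711826, plus strand (Zic2), chr4:99544286-99544535, plus strand (Foxd3) and chr13:53627111-53627360, minus strand (Msx2).
Six2: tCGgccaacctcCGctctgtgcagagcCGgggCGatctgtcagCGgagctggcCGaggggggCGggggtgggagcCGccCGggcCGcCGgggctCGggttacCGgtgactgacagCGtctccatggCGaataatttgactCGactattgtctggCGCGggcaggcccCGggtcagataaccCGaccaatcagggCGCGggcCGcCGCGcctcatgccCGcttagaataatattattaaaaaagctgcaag
Barx1: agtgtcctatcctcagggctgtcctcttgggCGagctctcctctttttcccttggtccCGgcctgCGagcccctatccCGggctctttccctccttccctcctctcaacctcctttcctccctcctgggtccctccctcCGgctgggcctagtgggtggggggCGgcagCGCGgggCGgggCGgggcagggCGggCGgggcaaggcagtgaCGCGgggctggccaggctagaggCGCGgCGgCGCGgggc
Zic2: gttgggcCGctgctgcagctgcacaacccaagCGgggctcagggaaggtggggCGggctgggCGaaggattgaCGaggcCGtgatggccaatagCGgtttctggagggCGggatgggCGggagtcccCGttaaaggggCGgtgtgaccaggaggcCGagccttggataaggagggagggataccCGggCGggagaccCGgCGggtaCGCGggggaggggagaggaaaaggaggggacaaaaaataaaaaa
Foxd3: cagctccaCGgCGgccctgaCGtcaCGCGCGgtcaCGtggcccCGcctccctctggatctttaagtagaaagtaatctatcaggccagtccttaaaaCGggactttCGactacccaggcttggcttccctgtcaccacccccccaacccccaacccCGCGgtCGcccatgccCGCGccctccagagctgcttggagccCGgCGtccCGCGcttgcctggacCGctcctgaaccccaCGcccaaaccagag
Msx2: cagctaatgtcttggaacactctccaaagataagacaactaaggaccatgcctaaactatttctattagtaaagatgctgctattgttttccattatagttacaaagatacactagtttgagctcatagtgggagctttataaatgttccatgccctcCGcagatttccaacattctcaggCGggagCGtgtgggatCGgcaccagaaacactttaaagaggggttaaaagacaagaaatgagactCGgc
The Six2 window held 26 CG dinucleotides, and 92.9% of 21751 windows of protein-coding genes held fewer. The Foxd3 window held 21 (more than 85.9% of windows), the Barx1 window 19 (more than 81.9%) and the Zic2 window 18 (more than 79.7%). The Msx2 window held 5, more than 36.4% of windows. Msx1, Snai2 and Zic1 were, like Msx2, called only between Kat6a-/- Tg(Kat6b) and Kat6a-/- embryos. Their windows held 21, 12 and 27 (more than 85.9%, 63.1% and 93.9%). The median was 12.5 over the 32 members and 8 over all windows. The same windows were searched on both strands for 3 motifs. The AP-2 consensus GCCNNNGGC was the one first meant to be marked, and none of the 5 sequences shown holds it. It was in the windows of 5 of the 32 members (Tfap2a, Snai1, Zic1, Twist2 and Ednrb) and of 13.2% of all windows. The TATA box letters TATAAA were in 5 members (Tfap2a, Tfap2b, Twist1, Alx1 and Msx2) and in 11.9% of all windows, and among the sequences shown only Msx2 holds them, in 1 stretch that matches on both strands. The E-box letters CANNTG were in 17 of the 32 members and in 64.8% of all windows, with 1 match each in Foxd3 and Zic2 and none in Six2, Barx1 and Msx2. The median GC content was 58.4% over the members and 53.2% over all windows. The marking of CG dinucleotides and the choice of Msx2 for contrast were made after these promoter values had been seen. The difference in CG count between Msx2 and the other 4 sequences shown therefore cannot be separated from that choice and was not tested. These counts describe the letters only.

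In wild-type embryos the members' levels ran from the low to the high end of the tested genes. Levels between genes are compared per length, as CPM per kilobase of gene length (RPKM). Twist1, a basic helix-loop-helix factor of head mesenchyme, was highest at 105 ± 3.38 RPKM (SD, n = 4), above 96.4% of the tested genes. Prrx2, a paired-type homeobox gene of mesenchyme, followed at 45.1 ± 0.811 RPKM, and neither overlapped its neighbour in the order. Snai1 (26.5 ± 1.92 RPKM), Zic1 (26.4 ± 1.46 RPKM) and Zic2 (23.3 ± 1.22 RPKM) came next, and each overlapped the next of these 3 in range. The lowest were Lhx6 (1.08 ± 0.207 RPKM) and Mitf (1.15 ± 0.0887 RPKM), which overlapped each other and lay above 20.9% and 21.7% of the tested genes, below Edn1 (1.77 ± 0.242 RPKM) and Lhx8 (1.79 ± 0.491 RPKM). From Twist2 to Eya2, 10 genes between 12.5 ± 0.9 and 8.93 ± 0.358 RPKM, each gene overlapped the next.

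**Figure D1:**
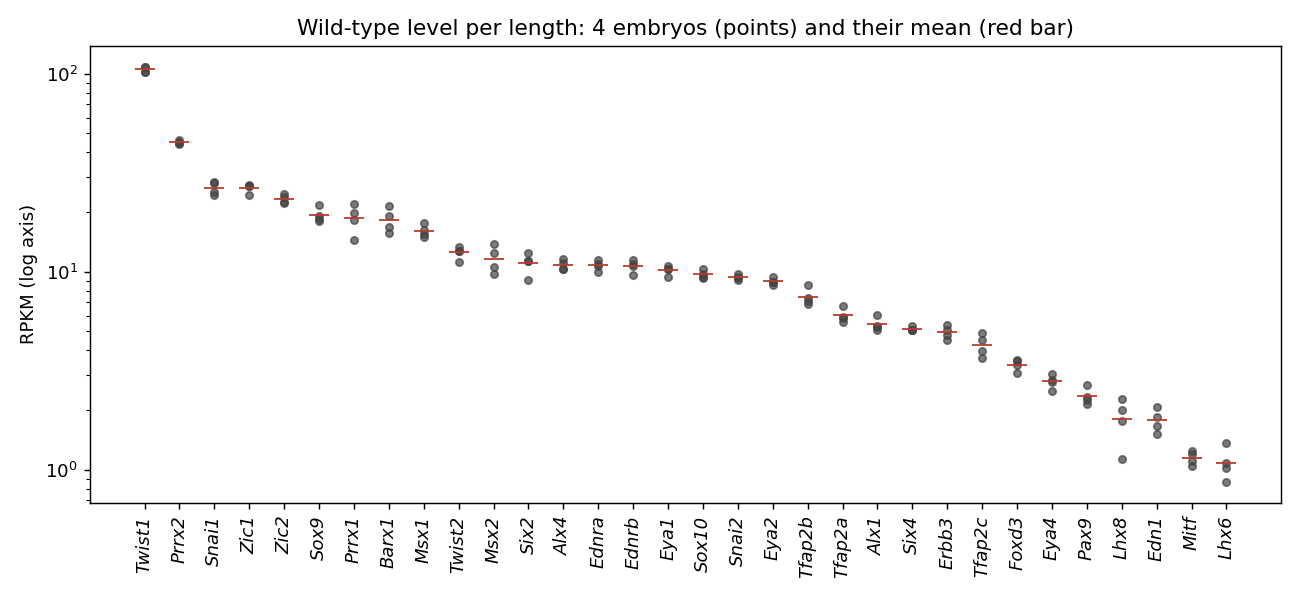
RPKM on a log axis for each of the 32 members in the 4 wild-type embryos (points) with the mean (red bar), ordered by the mean. Twist1 at 105 RPKM and Prrx2 at 45.1 RPKM stand above the rest, and Mitf and Lhx6 lie at 1.15 and 1.08 RPKM.

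In Kat6a-/- embryos 4 of the 32 members were lower than in wild type: Six2, Barx1, Zic2 and Foxd3. Barx1 was at 0.495 of its wild-type level, Six2 at 0.616, Foxd3 at 0.728 and Zic2 at 0.831. No member was higher. A gene is called here when its adjusted p (false discovery rate over all 15679 genes, edgeR quasi-likelihood test with 2 surrogate variables) is under 0.05. The background was 1.88% of all tested genes called in either direction and 0.938% called lower. Of the 32 members, 28 had a log2 fold change below 0, against 48.8% of all tested genes, and the median log2 fold change was -0.12 over the members and 0.00325 over all genes. An unadjusted p under 0.05 was reached by 15 members, all of them lower, against 15.2% of all genes (1243 lower and 1144 higher). In all, 8 members were lower in all 4 Kat6a-/- embryos than in all 4 wild-type embryos, which 4.01% of all genes were: Six2, Barx1, Zic2, Foxd3, Sox9, Snai2, Twist1 and Six4.

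Six2, a homeobox gene of head and arch mesenchyme that is best known for keeping kidney progenitors, was at 23.98, 19.1, 26.03 and 23.9 CPM in the 4 wild-type embryos and at 13.3, 13.1, 15.7 and 14.96 CPM in the 4 Kat6a-/- embryos. It was at 27.1, 27.5, 31.9 and 25.2 CPM in the Tg(Kat6b) embryos and at 23.99, 20.3, 16.6 and 20.4 CPM in the Kat6a-/- Tg(Kat6b) embryos. All Kat6a-/- values lay below all values of the other genotypes, and the 3 highest values were in Tg(Kat6b) embryos. The log2 fold change in Kat6a-/- against wild type was -0.70 ± 0.10 (SE), with an adjusted p of 6.60e-04. Within litter 801, the wild-type embryo was at 23.98 and its Kat6a-/- litter-mates at 13.3 and 13.1 CPM, and within litter 803 the values were 19.1 against 15.7 and 14.96 CPM.

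Barx1, a homeobox gene of the proximal arch mesenchyme where molars form, showed the lowest level relative to wild type of the 4. Its values were 21.3, 22.98, 26.1 and 29.04 CPM in wild-type embryos and 12.3, 10.8, 11.52 and 13.9 CPM in Kat6a-/- embryos. They were 28.4, 28.2, 18.3 and 22.6 CPM in Tg(Kat6b) embryos and 26.1, 16.8, 22.6 and 18.2 CPM in Kat6a-/- Tg(Kat6b) embryos. The Kat6a-/- embryos stood apart from all other embryos. In the Kat6a-/- Tg(Kat6b) group the 2 male embryos, at 26.1 and 22.6 CPM, were above the 2 females, at 16.8 and 18.2 CPM. In wild-type embryos the order was the reverse, with females at 26.1 and 29.04 CPM and males at 21.3 and 22.98 CPM. The log2 fold change in Kat6a-/- against wild type was -1.01 ± 0.18 with an adjusted p of 0.0144. Without wild-type embryo 2 the adjusted p was 0.0603, and without Kat6a-/- embryo 2 it was 0.0517. Within litter 801 the wild-type embryo was at 21.3 and the Kat6a-/- embryos at 12.3 and 10.8 CPM, and within litter 803 the values were 22.98 against 11.52 and 13.9 CPM.

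Zic2, a zinc finger gene of the dorsal neural tube that acts early in crest formation, was at 70.6, 73.3, 65.6 and 66.5 CPM in wild-type, 61.3, 58.2, 55.1 and 55.3 CPM in Kat6a-/-, 67.1, 71.2, 77.8 and 73.5 CPM in Tg(Kat6b) and 62.1, 64.7, 64.9 and 64.7 CPM in Kat6a-/- Tg(Kat6b) embryos. The 4 Kat6a-/- values were the lowest of the 16, and the Kat6a-/- Tg(Kat6b) values lay between them and the wild type without overlap on either side. Its log2 fold change against wild type was -0.27 ± 0.05 in Kat6a-/- embryos, with an adjusted p of 0.00545. Within litter 801 the wild-type embryo was at 70.6 and the Kat6a-/- embryos at 61.3 and 58.2 CPM, and within litter 803 the values were 73.3 against 55.1 and 55.3 CPM. The annotation places an opposite-strand gene, 2610035F20Rik, over 31.5% of the exon bases of Zic2, and the library kit does not mark strand, so reads from the pair cannot be told apart there.

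Foxd3, a forkhead factor of premigratory and migrating crest, was at 7.97, 7.29, 8.44 and 8.44 CPM in wild-type embryos and at 6.31, 6.39, 5.20 and 5.38 CPM in Kat6a-/- embryos, which did not overlap. Its values were 8.26, 8.31, 10.3 and 8.12 CPM in Tg(Kat6b) and 7.89, 7.07, 5.98 and 7.12 CPM in Kat6a-/- Tg(Kat6b) embryos. The last group lay across the gap between the first groups. The log2 fold change in Kat6a-/- embryos was -0.46 ± 0.11 with an adjusted p of 0.0392. This call was lost without any 1 of 10 embryos, namely each wild-type embryo, each Kat6a-/- embryo and Kat6a-/- Tg(Kat6b) embryos 2 and 4, with adjusted p of 0.056 to 0.136. It was also lost without surrogate variables, at an adjusted p of 0.0693. Opposite-strand genes cover 11% of its exon bases. Within litter 801 the wild-type embryo was at 7.97 and the Kat6a-/- embryos at 6.31 and 6.39 CPM, and within litter 803 the values were 7.29 against 5.20 and 5.38 CPM.

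When litter was entered as a blocking factor, without surrogate variables and using the embryos of the 4 litters that held a wild-type embryo, none of the 4 was called. The adjusted p was 0.0615 for Six2, 0.0908 for Barx1, 0.0924 for Zic2 and 0.479 for Foxd3, with log2 fold changes of -0.60, -0.87, -0.32 and -0.39. Of all tested genes, 18 were called in that fit.

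**Figure D2:**
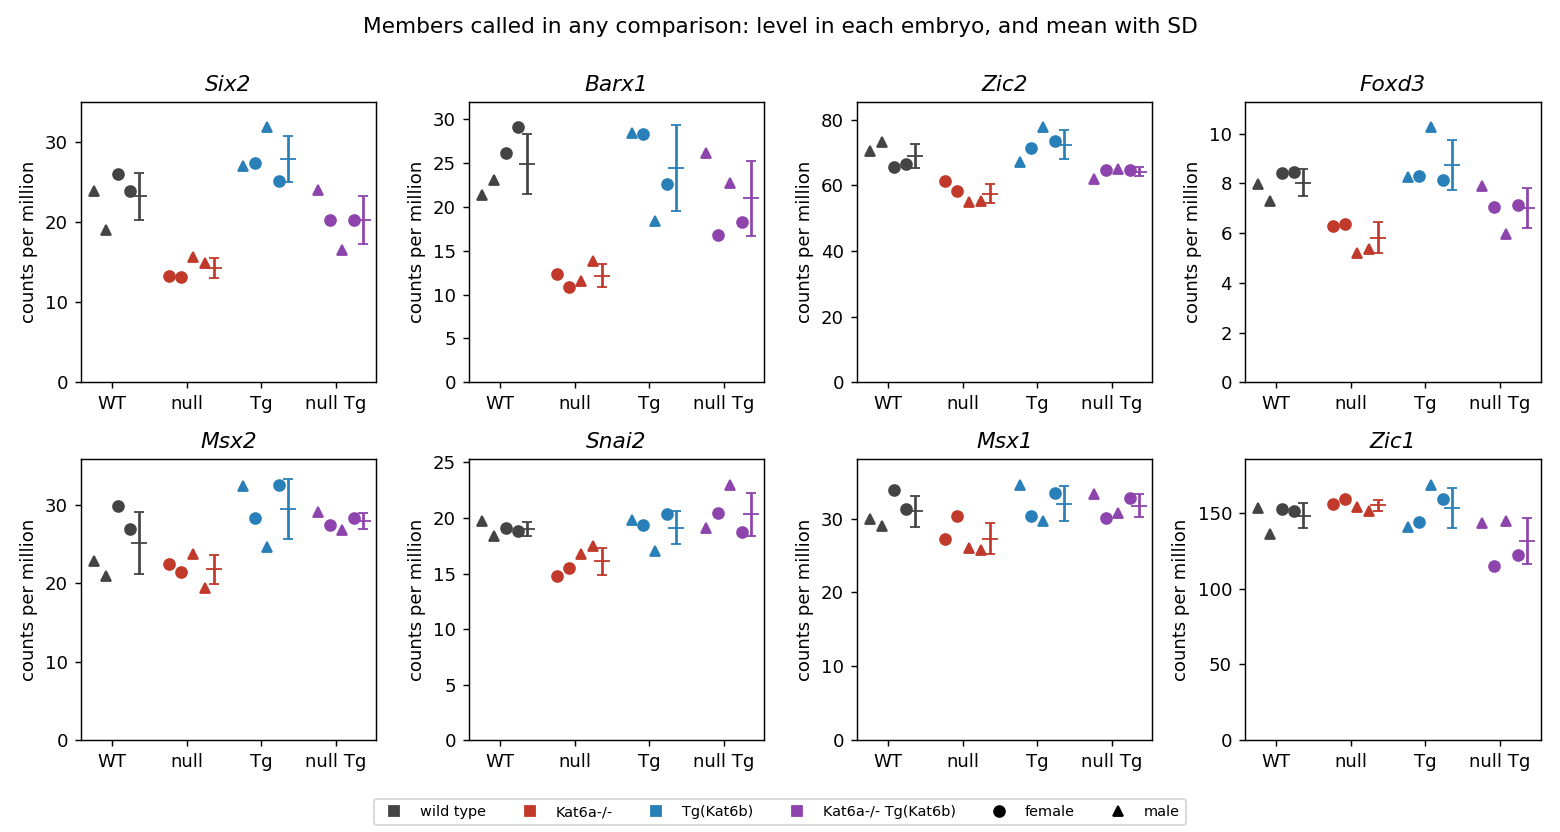
CPM in each of the 16 embryos for the 8 members called in at least 1 comparison, by genotype, with circles for female and triangles for male embryos and the mean with SD (bars) beside each group. For Six2, Barx1, Zic2 and Foxd3 all 4 Kat6a-/- embryos lie below all 4 wild-type embryos, with Barx1 at 10.8 to 13.9 against 21.3 to 29.0.

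A further 6 members had an unadjusted p under 0.01 in the edgeR fit and were not called. Prrx1, a homeobox gene of limb and face mesenchyme, was at 136, 108, 164 and 147 CPM in wild-type and 113, 117, 141 and 118 CPM in Kat6a-/- embryos, groups that overlapped (log2 fold change -0.16 ± 0.05, adjusted p = 0.0723). Its values were 124, 144, 140.3 and 140.1 CPM in Tg(Kat6b) and 139, 113, 137 and 111 CPM in Kat6a-/- Tg(Kat6b) embryos. Wild-type embryo 2 was the lowest of its group, and its Kat6a-/- litter-mates at 141 and 118 CPM were above it.

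Sox9, a factor of early crest and of cartilage, was at 76.2, 74.6, 90.5 and 79.4 CPM in wild-type and 66.3, 69.95, 64.8 and 69.7 CPM in Kat6a-/- embryos, without overlap (-0.23 ± 0.07, adjusted p = 0.0908). It was at 81.7, 87.3, 102 and 77.3 CPM in Tg(Kat6b) and 75.8, 65.2, 74.4 and 64.2 CPM in Kat6a-/- Tg(Kat6b) embryos. DESeq2 called Sox9 lower, at an adjusted p of 0.0433.

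Twist1 was at 167, 166, 176 and 177 CPM in wild-type and 145, 156, 161 and 149.6 CPM in Kat6a-/- embryos, without overlap (-0.16 ± 0.05, adjusted p = 0.103). It was at 179.6, 156, 154 and 179 CPM in Tg(Kat6b) and 162, 155, 156 and 148 CPM in Kat6a-/- Tg(Kat6b) embryos. All 8 embryos without KAT6A lay below the lowest wild-type embryo, as did 2 of the 4 Tg(Kat6b) embryos.

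Snai2, a zinc finger repressor of migrating crest, was at 19.8, 18.3, 19.1 and 18.8 CPM in wild-type and 14.8, 15.5, 16.7 and 17.4 CPM in Kat6a-/- embryos, without overlap (-0.24 ± 0.08, adjusted p = 0.14). It was at 19.8, 19.4, 16.99 and 20.3 CPM in Tg(Kat6b) and 19.1, 20.4, 23.00 and 18.7 CPM in Kat6a-/- Tg(Kat6b) embryos, the last group above all Kat6a-/- embryos.

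Lhx8, a LIM homeobox gene of the oral arch mesenchyme, was counted in few reads (35 to 116 in an embryo). It was at 4.48, 2.54, 3.97 and 5.15 CPM in wild-type and 2.16, 2.45, 3.37 and 2.17 CPM in Kat6a-/- embryos, which overlapped (-0.63 ± 0.20, adjusted p = 0.126). Within litter 801 Lhx8 was at 4.48 CPM in the wild-type embryo and 2.16 and 2.45 CPM in the Kat6a-/- embryos. Within litter 803 it was at 2.54 against 3.37 and 2.17 CPM. It was at 2.81, 2.86, 3.55 and 5.06 CPM in Tg(Kat6b) embryos. In the Kat6a-/- Tg(Kat6b) embryos it was at 2.55, 1.56, 3.45 and 1.10 CPM, and the female embryos, 2 and 4, held the lowest values of all 16. Among wild-type embryos Lhx8 was at 3.97 and 5.15 CPM in the females and 4.48 and 2.54 CPM in the males. Its relative Lhx6 was at 3.92, 3.31, 4.15 and 5.22 CPM in wild-type and 3.49, 2.84, 2.90 and 3.10 CPM in Kat6a-/- embryos (-0.40 ± 0.14, adjusted p = 0.163). It was at 4.25, 3.92, 4.37 and 4.54 CPM in Tg(Kat6b) and 3.85, 2.80, 3.82 and 2.83 CPM in Kat6a-/- Tg(Kat6b) embryos.

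By role, 9 of the 10 crest specifiers had log2 fold changes below 0, with a median of -0.15 and 2 called lower. Zic1 was the exception at 0.08 ± 0.05. Of the 12 arch mesenchyme genes, 11 were below 0 with a median of -0.17, and only Barx1 was called. Alx1, an aristaless-type homeobox gene of the face, was the exception at 0.02 ± 0.07. All 5 Six-family and Eya genes were below 0, and Six2 apart they lay between -0.13 ± 0.09 for Eya4 and -0.03 ± 0.07 for Eya2. Edn1 (the ligand), Ednra and Ednrb (the receptors) lay at -0.02 ± 0.15, -0.04 ± 0.07 and -0.10 ± 0.05. Erbb3, a neuregulin receptor of glial precursors, and Mitf, the regulator of melanocytes, were at 0.12 ± 0.07 and 0.03 ± 0.12. None of the last 5 passed the test.

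A further 15 members, which passed the test in no comparison, are given by their range over the 4 embryos of each genotype. Against wild type, their log2 fold changes in Kat6a-/- embryos lay between -0.20 ± 0.09 (Pax9) and 0.12 ± 0.07 (Erbb3), with adjusted p of 0.299 to 0.979 in edgeR. Tfap2b, an AP-2 factor of crest and its derivatives, was at 41.5 to 51.7 CPM in wild-type, 35.96 to 44.05 in Kat6a-/-, 41.2 to 56.9 in Tg(Kat6b) and 39.2 to 47.7 CPM in Kat6a-/- Tg(Kat6b) embryos. Tfap2c, another AP-2 factor, was at 11.2 to 14.96 CPM in wild-type, 11.1 to 14.5 in Kat6a-/-, 12.1 to 14.8 in Tg(Kat6b) and 10.2 to 12.4 CPM in Kat6a-/- Tg(Kat6b) embryos. Snai1, a zinc finger repressor related to Snai2, was at 39.7 to 46.1 CPM in wild-type, 39.7 to 44.5 in Kat6a-/-, 41.6 to 45.8 in Tg(Kat6b) and 41.02 to 44.6 CPM in Kat6a-/- Tg(Kat6b) embryos. For these 3 crest specifiers the wild-type and Kat6a-/- ranges overlapped. Twist2, the relative of Twist1, was at 14.97 to 17.8 CPM in wild-type, 14.6 to 18.6 in Kat6a-/-, 16.5 to 18.1 in Tg(Kat6b) and 11.4 to 17.02 CPM in Kat6a-/- Tg(Kat6b) embryos. Alx4, an aristaless-type homeobox gene of face and limb, was at 53.4 to 60.3 CPM in wild-type, 44.4 to 61.4 in Kat6a-/-, 50.4 to 66.1 in Tg(Kat6b) and 52.3 to 56.3 CPM in Kat6a-/- Tg(Kat6b) embryos. Pax9, a paired box gene of tooth mesenchyme and pharyngeal pouches, was at 9.27 to 11.6 CPM in wild-type, 7.97 to 9.40 in Kat6a-/-, 9.96 to 14.2 in Tg(Kat6b) and 7.82 to 10.7 CPM in Kat6a-/- Tg(Kat6b) embryos. Of these 3 arch genes, Pax9 reached an unadjusted p of 0.0463 in edgeR (adjusted p = 0.319). Prrx2, which is related to Prrx1, was at 50.9 to 53.02 CPM in wild-type, 47.1 to 53.7 in Kat6a-/-, 47.3 to 56.2 in Tg(Kat6b) and 46.4 to 53.2 CPM in Kat6a-/- Tg(Kat6b) embryos. Six4, a SIX-type factor, was at 33.9 to 35.8 CPM in wild-type, 30.9 to 33.9 in Kat6a-/-, 32.1 to 36.2 in Tg(Kat6b) and 32.9 to 36.04 CPM in Kat6a-/- Tg(Kat6b) embryos. Eya1, a coactivator of SIX-type factors, was at 42.7 to 48.3 CPM in wild-type, 42.01 to 46.8 in Kat6a-/-, 43.4 to 55.1 in Tg(Kat6b) and 45.7 to 49.00 CPM in Kat6a-/- Tg(Kat6b) embryos. The Six4 groups of wild-type and Kat6a-/- embryos did not overlap, at an adjusted p of 0.606. Eya2, of the same family, was at 23.7 to 26.1 CPM in wild-type, 23.7 to 25.1 in Kat6a-/-, 23.4 to 30.2 in Tg(Kat6b) and 19.9 to 26.1 CPM in Kat6a-/- Tg(Kat6b) embryos. Eya4, also of that family, was at 13.6 to 16.6 CPM in wild-type, 11.3 to 15.8 in Kat6a-/-, 11.3 to 18.9 in Tg(Kat6b) and 12.1 to 17.2 CPM in Kat6a-/- Tg(Kat6b) embryos. Ednra, the endothelin receptor of arch crest, was at 36.3 to 41.8 CPM in wild-type, 35.9 to 41.5 in Kat6a-/-, 33.3 to 41.9 in Tg(Kat6b) and 34.8 to 42.03 CPM in Kat6a-/- Tg(Kat6b) embryos. In all 3 the Kat6a-/- mean was within the range of the wild-type embryos. Ednrb, the endothelin receptor of pigment and enteric precursors, was at 41.9 to 50.04 CPM in wild-type, 41.7 to 45.6 in Kat6a-/-, 42.00 to 47.00 in Tg(Kat6b) and 39.1 to 45.2 CPM in Kat6a-/- Tg(Kat6b) embryos. Erbb3 was at 27.2 to 32.1 CPM in wild-type, 30.5 to 34.4 in Kat6a-/-, 24.99 to 33.4 in Tg(Kat6b) and 29.98 to 31.7 CPM in Kat6a-/- Tg(Kat6b) embryos. Mitf was at 5.58 to 6.66 CPM in wild-type, 5.64 to 6.90 in Kat6a-/-, 4.54 to 6.77 in Tg(Kat6b) and 5.25 to 5.82 CPM in Kat6a-/- Tg(Kat6b) embryos. Ednrb reached an unadjusted p of 0.0401 in edgeR (adjusted p = 0.299), and Erbb3 and Mitf reached none under 0.05.

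Between the genotypes without KAT6A, 6 members differed with the transgene, 5 of them upward. Six2, Msx2, Snai2, Barx1 and Msx1 were higher in Kat6a-/- Tg(Kat6b) than in Kat6a-/- embryos, and Zic1 was lower. Barx1 was at 1.78 of its Kat6a-/- level, Six2 at 1.51, Msx2 at 1.33, Snai2 at 1.26 and Msx1 at 1.17, while Zic1 was at 0.878. The background was 7.14% of tested genes called and 3.39% called higher. Of the 32 members, 23 had a log2 fold change above 0, with a median of 0.10 against -0.00490 over all genes, and 13 reached an unadjusted p under 0.05 in edgeR, against 23.2% of all genes. In all, 6 members were higher in all Kat6a-/- Tg(Kat6b) than in all Kat6a-/- embryos (Six2, Barx1, Zic2, Msx2, Snai2 and Alx1) against 7.29% of all genes, and 1 was lower in all (Zic1) against 7.94%. This comparison shares the Kat6a-/- embryos with the one before, so low values there enter both, and the Kat6a-/- Tg(Kat6b) embryos came from other litters.

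Six2 gave a log2 fold change of 0.59 ± 0.10 with an adjusted p of 0.0021, and the call held without any single embryo. Barx1 gave 0.83 ± 0.18 with an adjusted p of 0.0193. The Barx1 call was lost without Kat6a-/- embryo 2 (adjusted p = 0.0535), Kat6a-/- Tg(Kat6b) embryo 1 (0.0569) or embryo 3 (0.0523). Both lay between the wild-type and Kat6a-/- means: Six2 at 23.3 ± 2.93 CPM (SD, n = 4) in wild type, 14.3 ± 1.24 in Kat6a-/- and 20.3 ± 3.02 in Kat6a-/- Tg(Kat6b) embryos, and Barx1 at 24.9 ± 3.43, 12.1 ± 1.30 and 20.9 ± 4.26 CPM.

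Msx2, a homeobox repressor of arch and limb mesenchyme, was at 22.5, 21.4, 23.8 and 19.4 CPM in Kat6a-/- and 29.1, 27.4, 26.8 and 28.4 CPM in Kat6a-/- Tg(Kat6b) embryos, without overlap (0.41 ± 0.09, adjusted p = 0.0123). It was at 22.8, 20.99, 29.8 and 26.98 CPM in wild-type and 32.5, 28.3, 24.7 and 32.6 CPM in Tg(Kat6b) embryos. The spread was wide in both groups. Without Kat6a-/- Tg(Kat6b) embryo 1 the adjusted p against Kat6a-/- embryos was 0.0504. Within litter 801 the wild-type embryo was at 22.8 and the Kat6a-/- embryos at 22.5 and 21.4 CPM. Within litter 803 the values were 20.99 against 23.8 and 19.4 CPM. In litters 2597 and 2598 Msx2 was at 29.8 and 26.98 CPM in the wild-type embryos, which were female. Its paralogue Msx1 was at 27.2, 30.3, 25.9 and 25.7 CPM in Kat6a-/- and 33.3, 30.04, 30.8 and 32.8 CPM in Kat6a-/- Tg(Kat6b) embryos, and the groups overlapped (0.23 ± 0.07, adjusted p = 0.0449). In wild-type and Tg(Kat6b) embryos Msx1 was at 29.99, 28.9, 33.8 and 31.2 and 34.6, 30.3, 29.7 and 33.4 CPM. The Msx1 call was lost without any 1 of 7 embryos (wild-type embryo 3, Kat6a-/- embryos 1, 3 and 4, and Kat6a-/- Tg(Kat6b) embryos 1, 3 and 4), with adjusted p of 0.0564 to 0.154, and without surrogate variables, at 0.0778.

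Snai2 gave 0.34 ± 0.08 with an adjusted p of 0.0145. Without Kat6a-/- embryo 1 the adjusted p was 0.0561, and without Kat6a-/- Tg(Kat6b) embryo 3, the highest of all 16 at 23.0 CPM, it was 0.0670. Zic1, a zinc finger gene of dorsal neural tube and crest, was at 156, 159, 154 and 151 CPM in Kat6a-/- and 144, 115, 145 and 122 CPM in Kat6a-/- Tg(Kat6b) embryos (-0.19 ± 0.05, adjusted p = 0.0233). In wild-type embryos it was at 153, 136, 152 and 151 CPM and in Tg(Kat6b) embryos at 141, 144, 169 and 159 CPM. The female Kat6a-/- Tg(Kat6b) embryos, 2 and 4, were the lowest of all 16 at 115 and 122 CPM. Among wild-type embryos Zic1 was at 152 and 151 CPM in the females and 153 and 136 CPM in the males. The Zic1 call was lost without wild-type embryo 3, Kat6a-/- embryo 1 or 2, or Kat6a-/- Tg(Kat6b) embryo 2 or 4 (adjusted p of 0.0517 to 0.108), and without surrogate variables, at 0.0662.

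Just outside the threshold lay Prrx1 (0.15 ± 0.05, adjusted p = 0.0544) and Tfap2a (0.24 ± 0.08, adjusted p = 0.0572). DESeq2 and limma-voom called both, among 8 members each. In CPM, which are not adjusted for the surrogate variables, the Prrx1 groups overlapped. Mean Prrx1 was 122 CPM in Kat6a-/- and 125 CPM in Kat6a-/- Tg(Kat6b) embryos. Foxd3 and Zic2, called in the comparison of Kat6a-/- with wild type, gave 0.30 ± 0.12 (adjusted p = 0.115) and 0.14 ± 0.05 (adjusted p = 0.0973) here.

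**Figure D3:**
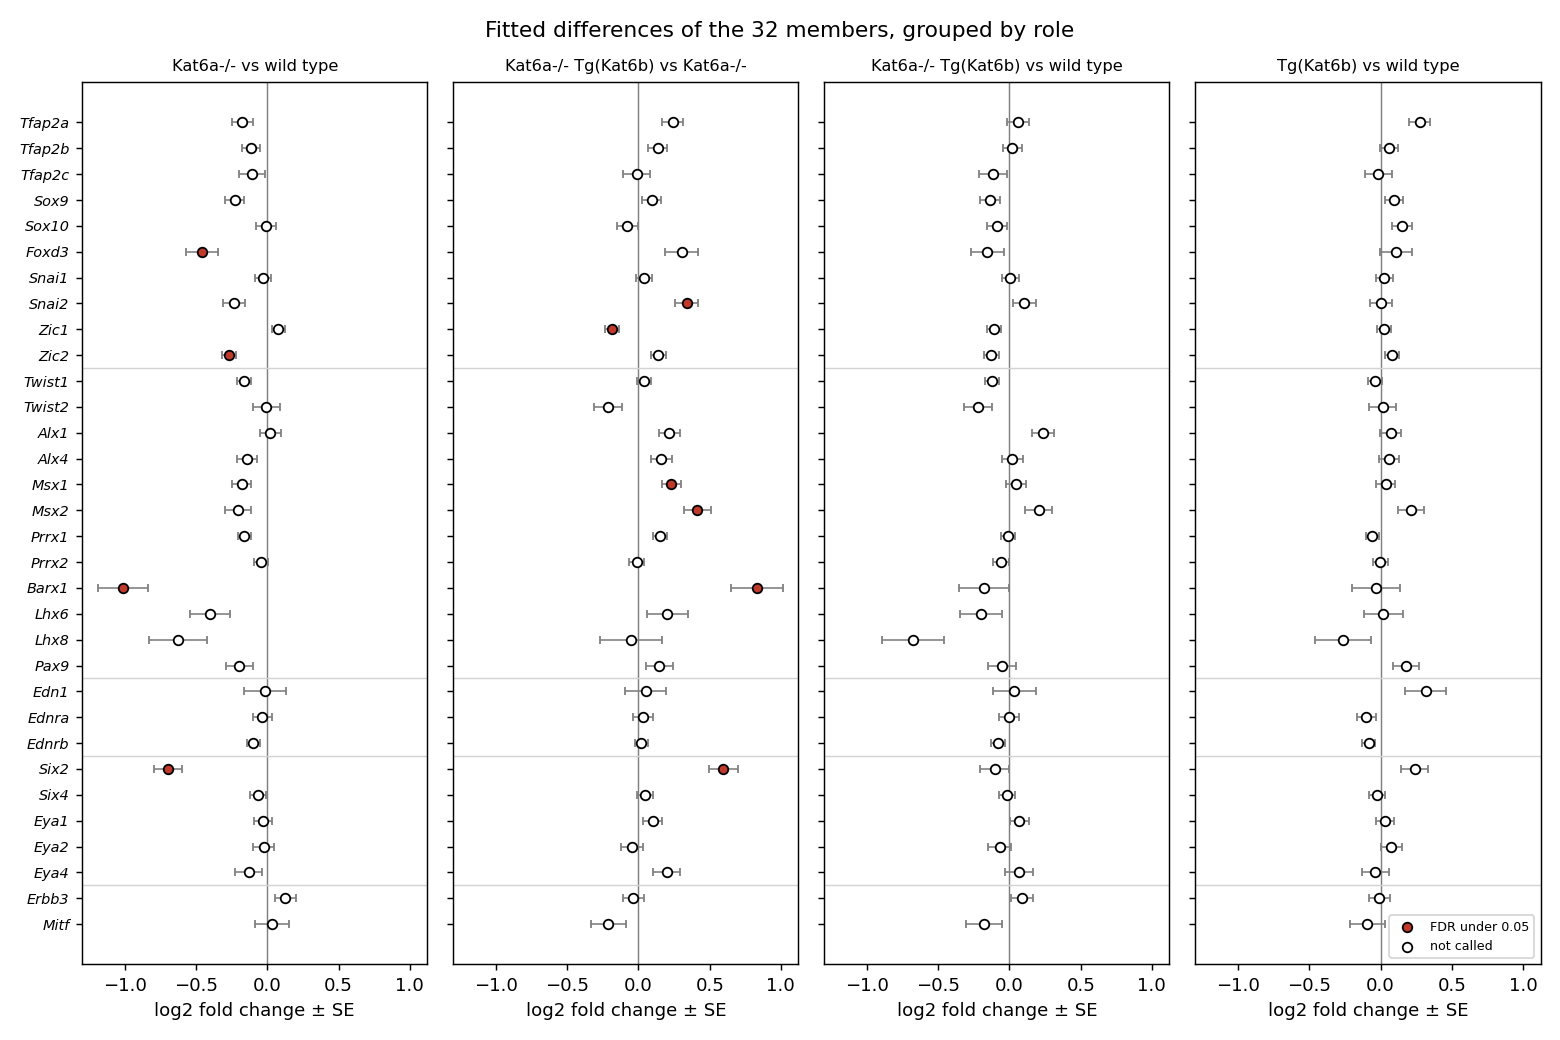
Fitted log2 fold change with SE (bars) for each of the 32 members in 4 comparisons, ordered by role with grey lines between roles, and filled where the adjusted p was under 0.05. Kat6a-/- against wild type has 4 filled points, all left of 0, Kat6a-/- Tg(Kat6b) against Kat6a-/- has 6, of which 5 lie right of 0, and the comparisons with wild type of both genotypes that carry the transgene have none.

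Against wild type, 0 of the 32 members were called in Kat6a-/- Tg(Kat6b) embryos in edgeR, where 0.67% of all tested genes were. DESeq2 and limma-voom also called 0. An unadjusted p under 0.05 was reached by 7 members (5 lower and 2 higher) against 12.7% of all genes, and the median log2 fold change was -0.05 against -0.00307. The smallest p belonged to Lhx8, at a log2 fold change of -0.68 ± 0.22 and an adjusted p of 0.18. Next came Alx1, which was at 16.04, 15.8, 14.98 and 15.5 CPM against 13.2, 12.6, 13.04 and 15.03 CPM in wild-type embryos, with a log2 fold change of 0.24 ± 0.08 and an adjusted p of 0.192. Alx1 ranged from 12.7 to 14.8 CPM in Kat6a-/- and from 13.7 to 14.7 CPM in Tg(Kat6b) embryos. The log2 fold changes of the 4 members lowered in Kat6a-/- embryos were -0.10 ± 0.10 for Six2, -0.18 ± 0.18 for Barx1, -0.13 ± 0.05 for Zic2 and -0.15 ± 0.12 for Foxd3, with adjusted p from 0.295 to 0.743. Mean CPM, which is not adjusted for surrogate variables, was 20.3 against 23.3 in wild type for Six2 and 20.9 against 24.9 for Barx1. For Zic2 it was 64.1 against 69.0, and for Foxd3 7.01 against 8.03. In all, 2 members were lower in all Kat6a-/- Tg(Kat6b) than in all wild-type embryos, Zic2 and Twist1, against 3.68% of all genes. A p that misses the threshold does not show that the levels were alike.

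In Tg(Kat6b) embryos with intact Kat6a, 0 members were called against wild type in edgeR, where 0.14% of all genes were. The count was 1 in DESeq2 (Tfap2a) and 0 in limma-voom. An unadjusted p under 0.05 was reached by 5 members, all higher, against 11.5% of all genes (1164 lower and 641 higher): Tfap2a, Six2, Msx2, Edn1 and Sox10. Tfap2a, which encodes the AP-2 alpha factor of early crest and surface ectoderm, was at 21.7, 26.1, 23.04 and 22.7 CPM in wild-type and 26.9, 30.3, 28.8 and 25.8 CPM in Tg(Kat6b) embryos, with a log2 fold change of 0.28 ± 0.07 and an adjusted p of 0.142. Only the lowest Tg(Kat6b) embryo, at 25.8 CPM, fell below the highest wild-type embryo, at 26.1 CPM. Within litter 2597 the wild-type embryo was at 23.0 and the Tg(Kat6b) embryos at 26.9, 30.3 and 28.8 CPM, and within litter 2598 the values were 22.7 and 25.8 CPM. Edn1 was at 4.44, 3.92, 3.57 and 3.23 CPM in wild-type and 5.95, 4.56, 3.92 and 3.89 CPM in Tg(Kat6b) embryos (0.32 ± 0.15, adjusted p = 0.397). In Kat6a-/- and Kat6a-/- Tg(Kat6b) embryos Edn1 ranged from 3.01 to 4.92 and from 3.45 to 5.21 CPM, and Tfap2a from 19.1 to 24.1 and from 22.9 to 26.5 CPM.

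Between the genotypes with the transgene, 1 member was lower without KAT6A. Zic2 was at 0.867 of its Tg(Kat6b) level in Kat6a-/- Tg(Kat6b) embryos (-0.21 ± 0.05, adjusted p = 0.0374). Of all genes, 3.41% were called in this comparison, so 1 call among 32 members is near the background. The Zic2 groups did not overlap, and neither did those of Sox9, Sox10, Foxd3, Lhx6 and Six2, which makes 6 members lower in all Kat6a-/- Tg(Kat6b) embryos against 4.37% of all genes. Alx1 was higher in all of them, which 6.09% of all genes were. The Zic2 call was lost without any 1 of 12 embryos (wild-type embryos 2 and 3, each Kat6a-/-, Tg(Kat6b) 3 and 4, and each Kat6a-/- Tg(Kat6b)), with adjusted p of 0.0528 to 0.12, and without surrogate variables, at 0.0572. An unadjusted p under 0.05 was reached by 9 members, all lower, against 18.9% of all genes (1301 lower and 1658 higher). Six2 (-0.34 ± 0.10, adjusted p = 0.0736), Sox10, a factor of migrating crest and glia (-0.24 ± 0.08, adjusted p = 0.0835), and Sox9 (-0.23 ± 0.07, adjusted p = 0.0858) lay just outside the threshold, and these 3 were called in place of Zic2 without surrogate variables. Sox10 was at 28.2, 26.99, 32.9 and 29.5 CPM in Tg(Kat6b) and 26.2, 23.3, 22.9 and 24.2 CPM in Kat6a-/- Tg(Kat6b) embryos. It ranged from 25.1 to 27.99 CPM in wild-type and from 23.98 to 28.2 CPM in Kat6a-/- embryos.

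The interaction asks whether the difference made by loss of KAT6A depended on the transgene. No member was called in edgeR, where 0.153% of all genes were, and 6 reached an unadjusted p under 0.05, against 14.6% of all genes. DESeq2 called 1 (Barx1) and limma-voom 0. For Barx1 the difference between the effects was 0.87 ± 0.25 on the log2 scale, with an unadjusted p of 0.00467 and an adjusted p of 0.171 in edgeR. The log2 fold change of Barx1 without KAT6A was -1.01 ± 0.18 without and -0.15 ± 0.18 with the transgene. Prrx1 (0.21 ± 0.07), Zic1 (-0.21 ± 0.07), Snai2 (0.33 ± 0.11), Six2 (0.35 ± 0.14) and Sox10 (-0.23 ± 0.10) followed, with adjusted p of 0.171 to 0.311. Mean Prrx1 CPM, not adjusted for surrogate variables, was 139 in wild-type, 122 in Kat6a-/-, 137 in Tg(Kat6b) and 125 in Kat6a-/- Tg(Kat6b) embryos.

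**Figure D4:**
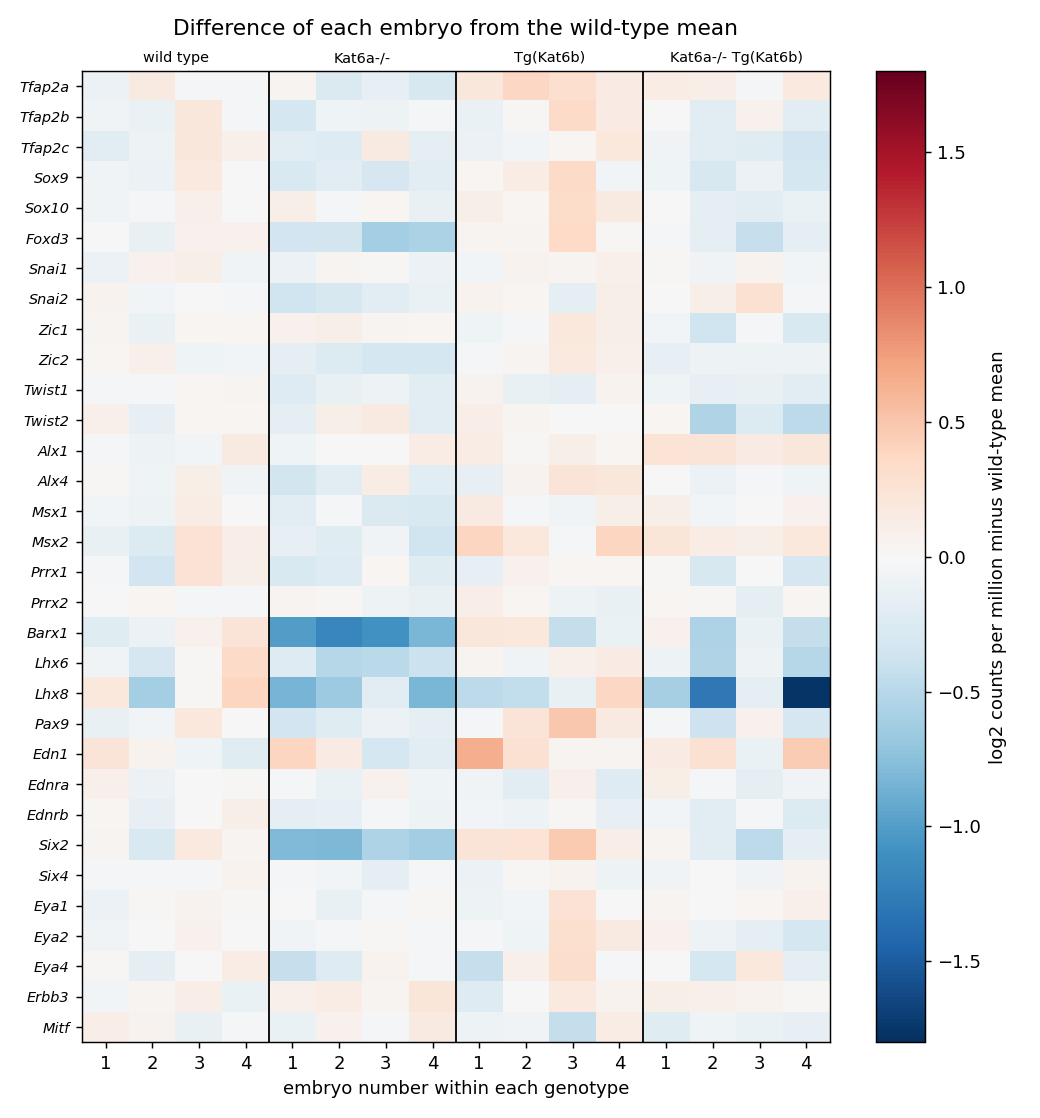
Log2 CPM of each embryo minus the wild-type mean, for the 32 members (top to bottom, by role) and 16 embryos (left to right, by genotype), with blue below and red above the wild-type mean. Barx1 and Six2 are blue in all 4 Kat6a-/- embryos, and Lhx8 is lowest in Kat6a-/- Tg(Kat6b) embryo 4, at 1.10 CPM.

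A further 100 genes of the same pathways, also chosen with earlier results of these data known, were followed, of which 94 were tested. In Kat6a-/- against wild type 10 were lower and 2 higher, and 69 of the 94 had a log2 fold change below 0. Over all tested genes, 1.88% were called, 0.938% were called lower and 48.8% had a log2 fold change below 0. Among 33 further arch genes, Dlx1 (-0.98 ± 0.14), Tbx1 (-0.65 ± 0.08) and Dlx2 (-0.31 ± 0.08) were lower; Dlx genes pattern the arches along their length and Tbx1 acts in pharyngeal endoderm and mesoderm. Among 27 further crest genes, Cdh11 (-0.18 ± 0.04), Pdgfra (-0.24 ± 0.05) and Dlx3 (-0.40 ± 0.10) were lower. Of the Six-family, Eya and Dach group, Six3, the genomic neighbour of Six2, was lower (-0.34 ± 0.08), as was Sall1 (-0.20 ± 0.05), and Dach2 was higher (0.39 ± 0.08). Kit (-0.26 ± 0.06) and Mycn (-0.26 ± 0.04) were lower, and Ece1, the enzyme that activates endothelin, was higher (0.14 ± 0.04).

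In Kat6a-/- Tg(Kat6b) against Kat6a-/- embryos, 16 of the 94 were higher and 2 lower, where 7.14% of all tested genes were called and 3.39% were higher. Of the higher genes, 9 were arch genes, among them Hand1 (1.16 ± 0.23), Pitx1 (0.91 ± 0.15), Osr2 (0.89 ± 0.27), Dlx1 (0.76 ± 0.14), Dlx2 (0.50 ± 0.08), Dlx5 (0.43 ± 0.11) and Tbx1 (0.36 ± 0.08). Six3 (0.40 ± 0.08), Sall1 (0.20 ± 0.05), Pdgfra (0.30 ± 0.05), Nrp1 (0.19 ± 0.04), Kit (0.40 ± 0.06) and Mycn (0.17 ± 0.04) were higher as well. The 2 lower genes were Dach2 (-0.59 ± 0.08) and Dct, an enzyme of pigment synthesis (-1.08 ± 0.32). Dct and Osr2 were at low levels. Dct was at 0.242 to 0.802 CPM in Kat6a-/- Tg(Kat6b) and 0.885 to 1.60 CPM in Kat6a-/- embryos. Osr2 was at 0.622 to 1.37 and 0.332 to 0.709 CPM in the same order. Against wild type, 0 of the 94 were called in either genotype that carried the transgene, with 19 at an unadjusted p under 0.05 in edgeR in each. Over all tested genes, 0.67% were called in Kat6a-/- Tg(Kat6b) and 0.14% in Tg(Kat6b) embryos, and 12.7% and 11.5% had an unadjusted p under 0.05, so few or no calls among 94 genes is near the background.

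Markers of other cells moved with some of these comparisons. All 4 macrophage markers (Ptprc, Csf1r, Mrc1 and C1qb) were higher in Kat6a-/- than in wild-type embryos, with sums of 6.47 to 16.1 against 2.60 to 7.23 CPM, and the sums were 4.22 to 7.35 CPM in Kat6a-/- Tg(Kat6b) embryos. The 4 markers of yolk sac endoderm and liver bud summed to 3.15 to 9.95 CPM in Kat6a-/- embryos, 9.06 to 50.5 in wild-type, 0.660 to 43.4 in Tg(Kat6b) and 29.2 to 44.5 CPM in Kat6a-/- Tg(Kat6b) embryos. None of these 4 was called in any comparison. Surface ectoderm markers summed to 185 to 231 CPM in Kat6a-/- Tg(Kat6b) and 155 to 188 CPM in Kat6a-/- embryos, and 2 of the 4 (Krt8 and Krt18) were higher. Summed arch mesenchyme markers were 361 to 407 CPM in Kat6a-/- and 386 to 448 CPM in wild-type embryos, and those of migrating crest 166 to 169.8 and 164 to 173 CPM. These 2 lists share Prrx1, Prrx2, Twist1, Alx1, Sox10, Foxd3, Erbb3 and Ednrb with the members. In Kat6a-/- Tg(Kat6b) against Tg(Kat6b) embryos, where Zic2 was lower, 2 of 5 neural tube markers (Sox1 and Sox2) were lower too, with sums of 647 to 740.3 against 704 to 780.4 CPM. In Kat6a-/- Tg(Kat6b) against Kat6a-/- embryos, where Zic1 was lower, 1 of the 5 (Nes) was lower, with sums of 647 to 740.3 against 730.1 to 818 CPM. Meox1, a somite marker, was lower in Kat6a-/- Tg(Kat6b) embryos than in each other genotype. The endothelial markers Tek and Cdh5 were higher there than in Kat6a-/- and in Tg(Kat6b) embryos, respectively. Nes was also lower in Tg(Kat6b) than in wild-type embryos. The part of these markers in the members' differences was not tested.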

How the data were processed

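RNA from 16 whole embryos was sequenced by the authors as paired reads from a kit that does not mark strand. Opposite-strand genes cover exon bases of other members besides Zic2 and Foxd3, where reads likewise cannot be told apart. The shares are 29.7% for Ednra, 26.6% for Twist2, 22.5% for Edn1, 16.2% for Alx1, 14.6% for Tfap2a, 13% for Sox9 and 12.7% for Snai1. They are smaller or absent in the rest. The authors aligned reads to mm39 with Rsubread and counted them per gene with featureCounts, and deposited raw counts per gene with gene lengths. The annotation, tool versions and treatment of multimapping reads are not given in the sources used here. Groups, litters and sexes follow the sample labels, and embryos are separate animals. The members and gene lists were chosen with earlier results of these data known.

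Genes passing edgeR's filterByExpr (minimum count 10, minimum total 15) were scaled by TMM and fitted with the robust quasi-likelihood model of edgeR 4.0.16 in R 4.3.3, over all 16 embryos, with 2 surrogate variables from sva 3.50.0. The first separated the sexes. The second was at -0.409 and -0.332 in female and 0.0167 and 0.0344 in male Kat6a-/- Tg(Kat6b) embryos. In wild-type embryos it was at 0.33 and 0.372 in females and -0.0682 and -0.479 in males. P-values were adjusted by Benjamini-Hochberg over 15679 genes. The SE of each edgeR log2 fold change was derived from its test, as the absolute log2 fold change divided by the square root of the F statistic. CPM used TMM-scaled library sizes; RPKM divided CPM by the deposited gene length. DESeq2 1.42.0 and limma 3.58.1 (voom) were alternatives. All members are given; those called in any comparison, or with p under 0.01 in Kat6a-/- against wild type, are given in every embryo, as are Alx1, Edn1, Sox10 and Tfap2a in the genotypes compared, chosen after their values were seen, and the rest by range. Of the further pathway genes, only called ones are named, and some of these are not reported here. Embryos of 1 genotype differed by more than sampling noise (chi-square per degree of freedom 1.84 to 15.9), so none was counted as a duplicate. Every member had 35 or more reads in every embryo. Promoter windows were read from GRCm39 and searched for 3 motifs, and CG counts and GC content were computed; which of these to mark was decided after their values were seen.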

Additional observations from a re-analysis of the deposited data

Results flagged for a closer look

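In 7 of 128 groups of 4 embryos (32 members in 4 genotypes), 1 embryo stood apart from the other 3 by Dixon's criterion, and chance alone marks about 1 in 20 such groups. Tfap2c was at 14.5 CPM in Kat6a-/- embryo 3, against 11.1 to 11.5 CPM in the others. Prrx1 was also high in that embryo, at 141 CPM against 113 to 118 CPM. Foxd3 was at 10.3 CPM in Tg(Kat6b) embryo 3, against 8.12 to 8.31 CPM. Zic1 was at 136 CPM in wild-type embryo 2, against 151 to 153 CPM. Zic2 was at 62.1 CPM in Kat6a-/- Tg(Kat6b) embryo 1, against 64.7 to 64.9 CPM. Prrx2 was at 46.4 CPM in Kat6a-/- Tg(Kat6b) embryo 3, against 52.6 to 53.2 CPM. Six4 was at 35.8 CPM in wild-type embryo 4, against 33.9 to 34.1 CPM.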

How the results depend on the processing

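For Kat6a-/- against wild type, 4 members were called; the count was 0 with the replicate block and 0 with litter as a block, and 2 to 6 when single embryos were left out. For Kat6a-/- Tg(Kat6b) against Kat6a-/-, 6 were called; the count was 1 with the replicate block (Twist2, lower) and 3 to 8 with single embryos left out. For Kat6a-/- Tg(Kat6b) against Tg(Kat6b), 1 was called; the count was 3 without surrogate variables, 3 with 1 surrogate variable, 3 with sex as a covariate, 3 in DESeq2, 2 without the filter on low counts, 0 with the replicate block, 0 over only the 2 genotypes compared, and 0 to 2 with single embryos left out. DESeq2 called 1 member in Tg(Kat6b) against wild type and 1 in the interaction, where edgeR called 0. Every other alternative kept its count within 1.5 times the main count, and Kat6a-/- Tg(Kat6b) against wild type had 0 calls in all.

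The numbers in the labels did not pair the embryos: 10 of 24 same-numbered pairs of different genotypes had correlated deviations over 0.1 (range -0.255 to 0.215), and for 4 of 16 embryos the closest embryo of another genotype had its own number. With the replicate block, the log2 fold change in Kat6a-/- against wild type turned to 0.065 for Sox9, 0.30 for Prrx1, 0.13 for Lhx6 and 0.26 for Lhx8. The called members kept their direction and lost their calls, at -0.16 for Barx1, -0.47 for Six2, -0.47 for Zic2 and -0.37 for Foxd3. In Kat6a-/- Tg(Kat6b) against Kat6a-/- embryos the values were 0.19 for Barx1, 0.37 for Six2, 0.22 for Msx2, 0.24 for Snai2, 0.12 for Msx1 and -0.37 for Zic1, and against Tg(Kat6b) Zic2 was at -0.28. The causes were not tested. Of 452 values of 17 gene and comparison pairs under alternatives, these 4 changed direction, 74 lost a call, 5 gained one and 369 did neither. The litters of Kat6a-/- Tg(Kat6b) embryos hold no other genotype, so no litter block could be fitted for their comparisons.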
